A study of Mus musculus with 5 samples.

Results

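Myelin structure and mature oligodendrocyte genes are described here by where the zinc finger transcription factor ZFP24, also called ZFP191, was found around them by chromatin immunoprecipitation sequencing (ChIP-seq). The 36 genes were chosen as a list of named myelin and mature oligodendrocyte genes, and each was matched to exactly 1 of 21755 protein-coding genes on chromosomes 1 to 19 and X. The libraries were wild-type oligodendrocytes (OLG), Zfp191-null OLG, wild-type oligodendrocyte progenitor cells (OPC), Zfp191-null OPC and an input DNA pooled from both genotypes and both cell types, with 1 library per group. All cells came from the brain of C57BL/6 mice at postnatal day 7 and were purified by immunopanning. OLG were made from such progenitors by 5 days of culture without PDGF and with 40 ng/ml triiodothyronine, so they are cells differentiated in a dish. The null cells carry no functional Zfp191, the gene of the immunoprecipitated protein. The sources used here do not say how many animals went into a library.

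The deposited data analysed here were a list of 1752 OLG peaks, each 221 bp wide, and a list of 4643 OPC peaks, each 209 bp wide. Each list is named by the labels for the wild-type and for the null library of its cell type, and how these were set against each other is not stated. A peak is a stretch of genome where the immunoprecipitated DNA piled up enough to be called by the authors' software. The lists held positions only, with no read count or score, so library depth is unknown and the strength of binding cannot be compared. Transcript levels were not measured, so the cell type labels could not be checked against marker expression. There were no replicates, so no difference between the lists has a replicate check and no test was made. Exact (Clopper-Pearson) 95% intervals are given for shares and cover counting error over genes, peaks or tracts only.

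Myelin is the stack of membrane that oligodendrocytes wrap around axons, built from a few abundant proteins and from galactolipids with very long or hydroxylated fatty acids. Its genes are switched on together when progenitors stop dividing and differentiate. ZFP24 is needed for central myelination in mice, and it is known to bind tandem repeats of the 4-base unit TCAT.

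Within 10 kb of a transcript start, ZFP24 peaks were near a minority of myelin genes, as they were of protein-coding genes at large. In OLG, 5 of the 36 genes had a peak centre within 10 kb, namely Tspan2, Gsn, Car2, Josd2 and Fa2h, which was 13.9% (interval 4.67 to 29.5) beside 6.50% of all protein-coding genes. In OPC, 4 of the 36 had such a peak, namely Gpr37, Gal3st1, Plekhb1 and Mag, which was 11.1% (3.11 to 26.1) beside 12.8% of all genes. No member had a peak of both lists within 10 kb, where 2.13% of all genes did, and the interval for 0 of 36 runs up to 9.74%. A peak of either list was near 9 members, or 25% (12.1 to 42.2), beside 17.1% of all genes. With so few members the intervals are wide, and the share of all genes lies inside each of these 4.

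The members just inside and just outside the 10 kb limit were Fa2h at 5638 bp and Opalin at 11685 bp in OLG, and Mag at 6087 bp and Tmem88b at 17556 bp in OPC. At the 50 kb limit they were Cnp at 44826 bp and Cryab at 52438 bp in OLG, and Gjb1 at 46697 bp and Omg at 61505 bp in OPC.

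**Figure D1:**
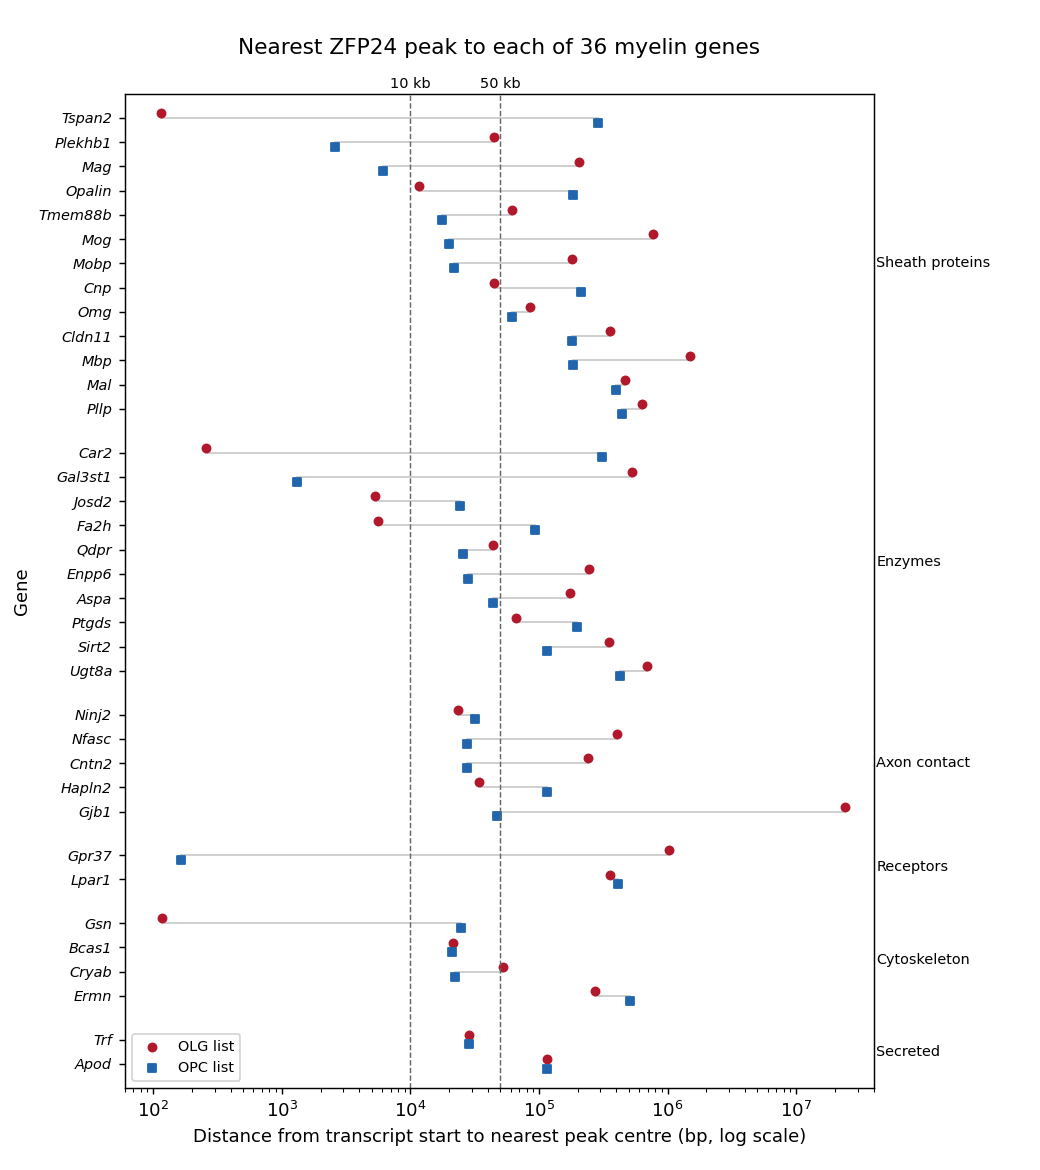
Distance in bp (log scale) from the nearest transcript start to the nearest peak centre of the OLG list (circles) and of the OPC list (squares) for each of the 36 genes, grouped by role, with dashed lines at 10 kb and 50 kb. Left of the 10 kb line are the OLG peaks of 5 genes and the OPC peaks of 4 others. Of all protein-coding genes, 2.13% have a peak of both lists there. Trf, Apod and Bcas1 have both symbols at almost the same distance.

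Directly at the start site the counts were small. Within 1 kb, 3 members had an OLG peak, 8.33% (1.75 to 22.5) beside 4.08% of all genes. An OPC peak there was found for 1 member, 2.78% (0.0703 to 14.5) beside 8.21% of all genes. Both intervals hold the share of all genes. The 3 OLG genes were Tspan2, a tetraspanin of the myelin membrane, Gsn, the actin-severing protein gelsolin, and Car2, the carbonic anhydrase of oligodendrocytes. Their peak centres lay 115 bp downstream, 117 bp upstream and 255 bp downstream of a start. These 3 were the members nearest to an OLG peak, so their ranks are low by choice. Of all protein-coding genes, 0.804% had an OLG peak nearer to a start than Tspan2 did, 0.823% nearer than Gsn and 1.88% nearer than Car2. Among far members, 84.2% of all genes had one nearer than Mbp did and 99.7% nearer than Gjb1. The nearest OPC peak lay 285571 bp from Tspan2, 24548 bp from Gsn and 308065 bp from Car2. The 1 OPC gene was Gpr37, an orphan G protein-coupled receptor of differentiating oligodendrocytes, with its peak 163 bp from a start and its nearest OLG peak at 1025460 bp.

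The sequences of 4 peaks that belong to members are shown because they differ in kind. They are an intronic OPC peak of Mag with a tandem repeat near 1 end, the OLG peak just upstream of Gsn, the OLG peak upstream of Fa2h and an intronic OPC peak of Plekhb1. All are read from GRCm38 on the strand of the gene, and capitals mark each copy of TCAT or of its reverse complement ATGA and any tandem tract of at least 12 bases.
Mag, OPC, chr7:30908117-30908325, minus strand: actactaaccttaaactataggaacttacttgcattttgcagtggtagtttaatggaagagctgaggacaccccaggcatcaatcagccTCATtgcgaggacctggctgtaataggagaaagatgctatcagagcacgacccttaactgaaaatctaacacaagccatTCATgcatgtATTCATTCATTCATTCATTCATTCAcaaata
Gsn, OLG, chr2:35256153-35256373, plus strand: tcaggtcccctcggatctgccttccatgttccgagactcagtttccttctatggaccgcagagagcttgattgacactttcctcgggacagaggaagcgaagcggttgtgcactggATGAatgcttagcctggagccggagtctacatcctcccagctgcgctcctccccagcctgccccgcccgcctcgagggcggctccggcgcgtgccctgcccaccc
Fa2h, OLG, chr8:111399352-111399572, minus strand: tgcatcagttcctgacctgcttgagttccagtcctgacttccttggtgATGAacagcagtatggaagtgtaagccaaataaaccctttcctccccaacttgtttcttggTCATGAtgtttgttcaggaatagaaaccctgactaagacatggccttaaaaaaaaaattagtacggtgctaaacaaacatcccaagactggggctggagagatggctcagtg
Plekhb1, OPC, chr7:100654265-100654473, minus strand: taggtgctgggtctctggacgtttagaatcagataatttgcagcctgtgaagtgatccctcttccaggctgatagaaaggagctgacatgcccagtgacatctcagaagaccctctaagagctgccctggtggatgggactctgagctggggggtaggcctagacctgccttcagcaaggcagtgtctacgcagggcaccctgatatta
The Mag peak held 7 copies of the unit, most of them in a tract of 25 bases that lay 74 bp from the peak centre. The Gsn peak held 1 copy, the Fa2h peak 3 copies, a pair of which overlap, and the Plekhb1 peak none, where the median was 1 copy over all OLG peaks and 1 over all OPC peaks.

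Among the 13 genes of proteins of the sheath itself, Tspan2, Plekhb1 and Mag had a peak of either list within 10 kb. Of all protein-coding genes, 17.1% did. Mag (chromosome 7, 30899176 to 30914832, minus strand) encodes an immunoglobulin-like adhesion protein that faces the axon. Its OPC peak lay in an intron, 6087 bp downstream of a start, and no OLG peak lay within 100 kb of a start. Plekhb1, a pleckstrin homology domain protein, likewise had its OPC peak in an intron of its own, 2584 bp downstream of a start. Its nearest OLG peak was at 44437 bp and lay in the 5' untranslated region (UTR) of Fam168a. Tspan2 (chromosome 3, 102734529 to 102772292, plus strand) had its OLG peak at the start of its transcripts, partly in the UTR and centred in an intron.

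The other sheath protein genes had no peak within 10 kb in either list. Mbp (chromosome 18, 82475146 to 82585637), which encodes the basic protein that holds the cytoplasmic faces of compact myelin together, had its nearest OLG peak 1488833 bp and its nearest OPC peak 183591 bp from a start. Mog, an immunoglobulin-like protein of the outermost myelin surface, had its nearest OLG peak at 765678 bp and its nearest OPC peak at 19870 bp. That OPC peak was 291 bp from the start of another gene, Zfp57, in its intron. Mobp, a small basic protein of compact myelin, had its nearest OLG peak at 178994 bp and OPC peaks at 21759 bp and 42568 bp. The nearer of these lay in the 5' UTR of Rpsa, 104 bp from that gene's start.

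Cnp, the cyclic nucleotide phosphodiesterase of non-compact myelin, had OLG peaks at 44826 bp and 47716 bp. They lay at the starts of its neighbours, 438 bp from that of Dnajc7 and 681 bp from that of Acly, the ATP citrate lyase gene. Its nearest OPC peak was at 212440 bp. Opalin, an oligodendrocyte membrane glycoprotein, had an OLG peak 11685 bp upstream of its start, in a coding exon of Tll2, and its nearest OPC peak was at 182522 bp. Tmem88b had an OPC peak at 17556 bp, 91 bp from the start of Mrpl20, and its nearest OLG peak at 62133 bp.

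Like Mbp, 4 other sheath genes had no peak of either list within 50 kb, namely Cldn11, the claudin of myelin tight junctions, Mal and Pllp, proteolipids of myelin lipid rafts, and Omg, an anchored glycoprotein. Of all protein-coding genes, 36.7% had a peak of either list within 50 kb and the rest had none. For Cldn11 the nearest OLG peak lay 356400 bp and the nearest OPC peak 180956 bp away. For Mal the distances were 466351 bp in OLG and 397816 bp in OPC, for Pllp 635772 and 442362 bp, and for Omg 85808 and 61505 bp. Both peaks nearest to Omg held a TCAT tract, of 32 bases in OLG and of 30 bases, in an intron of Nf1, in OPC.

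Among the enzymes, 3 of 10 genes had an OLG peak and 1 of 10 an OPC peak within 10 kb, beside 6.50% of all genes in OLG and 12.8% in OPC. Fa2h (chromosome 8, 111345141 to 111393824) encodes the hydroxylase that supplies the hydroxylated fatty acids of myelin galactolipids. Its OLG peak was intergenic, 5638 bp upstream, and Fa2h was the nearest protein-coding start to it. In the RefSeq genome sequence 92.3% of that peak was masked as repetitive, where 4.62% of OLG peaks were masked over more than 50% of their bases. The nearest OPC peak was 93618 bp upstream of Fa2h, in an intron of Wdr59, and held a TCAT tract of 35 bases. Gal3st1, the sulfotransferase that makes sulfatide, had an OPC peak in its 5' UTR, 1315 bp downstream of a start, and its nearest OLG peak at 531467 bp. Car2 (chromosome 3, 14886428 to 14900770) had its OLG peak in the 5' UTR. Josd2, a deubiquitinase, was 5302 bp from an OLG peak that lay in a coding exon of Lrrc4b, with the start of Aspdh nearer to it at 2713 bp. Josd2 had further OLG peaks at 39876 and 48478 bp, and OPC peaks at 24108 bp in an intron of Lrrc4b and at 28239 bp, 73 bp from the start of Emc10.

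Ugt8a, the transferase that makes galactocerebroside, was among the members farthest from any peak. Its nearest OLG peak was at 687345 bp and its nearest OPC peak at 426674 bp. The OPC peak held a TCAT tract of 33 bases and lay in an intron of Arsj. Enpp6, a choline phosphodiesterase that marks newly forming oligodendrocytes, had an OPC peak in its own intron, 28094 bp downstream of a start, and its nearest OLG peak at 245799 bp. Aspa, which cleaves N-acetylaspartate, had its nearest OLG peak at 173937 bp and its nearest OPC peak at 43969 bp in an intron of Trpv3. Qdpr, a pteridine reductase, had an OLG peak at 43465 bp and OPC peaks at 25526 and 43390 bp. The nearest OLG and OPC peaks were 66357 and 197065 bp from Ptgds, the prostaglandin D synthase, and 352599 and 115481 bp from Sirt2, a tubulin deacetylase.

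The 5 genes of axon contact and junctions had no peak within 10 kb of a start, where 17.1% of all protein-coding genes had a peak of either list. With RefSeq starts, Nfasc had an OPC peak within 10 kb. Nfasc, the gene of neurofascin, whose glial form anchors the paranodal loops, held 3 OPC peaks in its 177108 bp body and no OLG peak. They were centred 27464 and 59417 bp from a start in introns, and 136758 bp away in a coding exon. The exonic peak was also the one nearest to Cntn2, the neighbouring gene of a juxtaparanodal adhesion protein, at 27629 bp, so that these 2 members share it. The nearest OLG peak to the pair was 404928 bp from Nfasc and 240541 bp from Cntn2. Hapln2, a link protein of the nodal matrix, had an OLG peak at 34405 bp in a coding exon of Bcan, the brevican gene, and its nearest OPC peak at 115494 bp. Ninj2, an adhesion protein of the ninjurin family, had an OLG peak at 23395 bp and an OPC peak at 31865 bp, and was the nearest protein-coding start to both. Gjb1, a gap junction connexin gene on chromosome X, had an OPC peak at 46697 bp in an intron of Nono and its nearest OLG peak at 23865077 bp.

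The remaining members were mixed. Lpar1, a receptor for lysophosphatidic acid, had its nearest OLG peak at 357910 bp and its nearest OPC peak at 410798 bp. Ermn, a cytoskeletal protein of mature oligodendrocytes, lay 271719 bp from an OLG peak and 513283 bp from an OPC peak, and Cryab, a small heat shock protein, 52438 and 22129 bp. Trf, the iron carrier transferrin, had an OLG peak at 28456 bp and an OPC peak at 28300 bp, and Apod, the lipid carrier apolipoprotein D, had them at 114390 and 114522 bp.

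Bcas1, a marker of oligodendrocytes that have begun to myelinate, had a peak of each list side by side in a coding exon of its own. The OLG peak was centred 21464 bp and the OPC peak 21109 bp downstream of a start, and 140 bases lay between their edges, so that they do not count as overlapping. Their sequences are shown because Bcas1 was the member with peaks of both lists inside its gene body. Capitals again mark copies of TCAT or ATGA, of which the OLG peak held none and the OPC peak 1.
Bcas1, OLG, chr2:170406254-170406474, minus strand: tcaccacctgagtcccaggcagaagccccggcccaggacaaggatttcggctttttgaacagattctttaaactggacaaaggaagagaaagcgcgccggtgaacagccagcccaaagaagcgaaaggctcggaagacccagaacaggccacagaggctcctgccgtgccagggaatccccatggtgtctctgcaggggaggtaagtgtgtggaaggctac
Bcas1, OPC, chr2:170406615-170406823, minus strand: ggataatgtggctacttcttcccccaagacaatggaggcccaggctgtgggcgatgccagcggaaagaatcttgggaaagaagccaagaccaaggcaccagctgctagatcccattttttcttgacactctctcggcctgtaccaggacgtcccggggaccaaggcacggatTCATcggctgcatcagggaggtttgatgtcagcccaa
A further OPC peak of Bcas1 lay 71539 bp from a start, also in a coding exon.

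Peaks inside the members' own gene bodies were in the OPC list for 7 genes and in the OLG list for 3. In OLG these were Bcas1, Car2 and Tspan2 with 1 peak each, 8.33% of members beside 5.53% of all genes. In OPC they were Bcas1, Enpp6, Gal3st1, Gpr37, Mag, Nfasc and Plekhb1 with 10 peaks in all, 19.4% of members beside 11.5% of all genes.

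At 50 kb the members had peaks more often than protein-coding genes at large. In OLG 13 members had a peak within 50 kb, 36.1% (20.8 to 53.8) beside 15.2% of all genes. In OPC 19 members had one, 52.8% (35.5 to 69.6) beside 29.3% of all genes. A peak of either list lay within 50 kb of 25 members, 69.4% (51.9 to 83.7) beside 36.7%, and peaks of both lists within 50 kb of 7 members, 19.4% (8.19 to 36) beside 7.75%. The 7 were Bcas1, Gsn, Josd2, Ninj2, Plekhb1, Qdpr and Trf. At 100 kb the shares were 47.2% (30.4 to 64.5) beside 24.3% in OLG and 58.3% (40.8 to 74.5) beside 43.5% in OPC. The lists of other genes described below also mostly exceeded all genes at 50 kb, with shares below those of members. In OLG the shares were 21.7% of other oligodendrocyte genes, 30% of progenitor, 33.3% of neuronal, 20% of microglial and 6.67% of astrocyte markers. In OPC they were 43.3%, 50%, 40%, 20% and 40% in the same order. A share above that of all genes was thus not particular to the myelin genes. The list was chosen with results of these data known, and it was not tested whether it differs from other lists of genes.

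**Figure D2:**
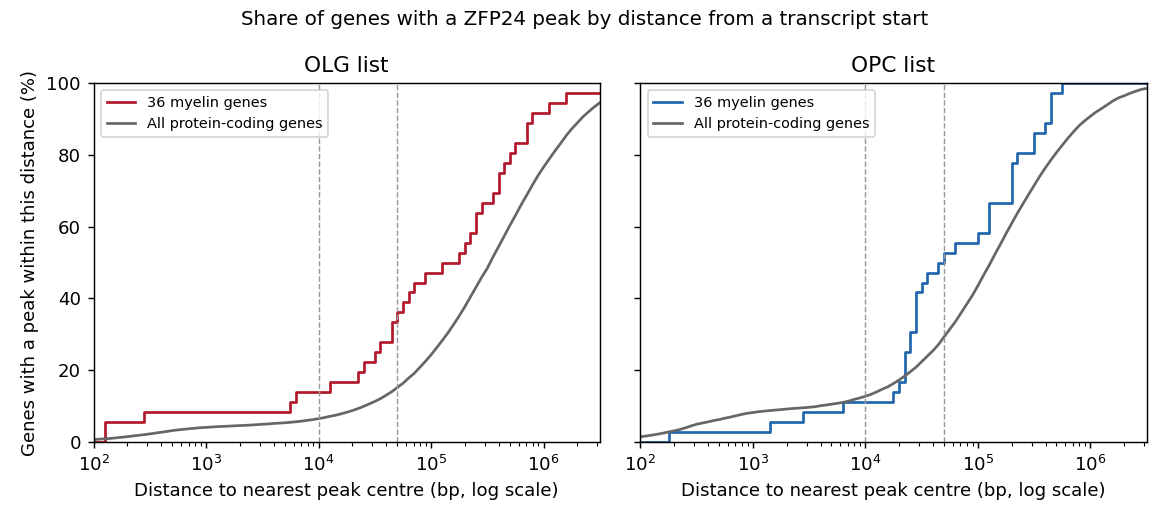
Share of the 36 myelin genes (coloured steps) and of all protein-coding genes (grey line) with a peak centre within a given distance of a start (bp, log scale), for the OLG list (left) and the OPC list (right), with dashed lines at 10 kb and 50 kb. In OLG the members run above all genes through most of the range shown, while in OPC they run below or close to them up to 10 kb and above them at 50 kb, where 52.8% of members and 29.3% of all genes have a peak.

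Many of these more distant peaks lay at other genes. Within 50 kb there were 16 OLG peaks and 22 OPC peaks, and the nearest protein-coding start was that of the member for 7 of the OLG peaks and 11 of the OPC peaks. With each peak given only to the gene of its nearest start, 7 members kept an OLG peak within 50 kb (19.4%, beside 6.51% of all genes) and 11 kept an OPC peak (30.6%, beside 14.0%). The OLG genes were then Bcas1, Car2, Fa2h, Gsn, Ninj2, Opalin and Tspan2. The OPC genes were Bcas1, Cntn2, Enpp6, Gal3st1, Gpr37, Gsn, Mag, Mobp, Nfasc, Ninj2 and Plekhb1.

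Of the OLG peaks within 50 kb, 5 were centred in intergenic sequence, 4 in introns, 4 in coding exons and 3 in 5' UTRs. Of the OPC peaks, 10 were in introns of protein-coding genes, 4 in coding exons, 4 in 5' UTRs, 3 in intergenic sequence and 1 in a lincRNA intron. The median GC content was 64.3% in the OLG peaks and 52.2% in the OPC peaks. Features and GC content of the whole lists are not given here, so neither is read as particular to peaks near members. Peaks of the lists overlapped at 2 of these sites, 12.5% of the 16 OLG peaks and 9.09% of the 22 OPC peaks, where 14.5% of all OLG peaks and 5.47% of all OPC peaks overlapped one of the other list. Both sites were at the starts of neighbours. The peaks near Trf shared 59 bp at the start of Srprb, a subunit gene of the signal recognition particle receptor, and those near Qdpr shared 140 bp at the start of Lap3, an aminopeptidase gene. The nearest sites of Apod in both lists, beyond 50 kb, likewise overlapped, in an intron of Acap2.

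For 11 members neither list had a peak within 50 kb, namely Apod, Cldn11, Ermn, Lpar1, Mal, Mbp, Omg, Pllp, Ptgds, Sirt2 and Ugt8a. The other 25 members, 69.4%, had a peak of either list there, beside 36.7% of all protein-coding genes. The median distance from a member to its nearest OLG peak was 144164 bp, against 333727 bp over all protein-coding genes. For OPC it was 45333 bp for members, against 129269 bp over all genes. The OLG peak was the nearer of the 2 for 13 members, 36.1%, and for 27.2% of all genes, in lists that differ in length.

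Base composition of the starts is given because the share of genes with a peak varied with it. Gene density and gene length are given beside it. In a window of 1000 bp on the most upstream start, median GC was 56.6% for members and 55.3% for all genes. Of all genes with a GC content of 60% and over, 11.4% had an OLG peak and 19.8% an OPC peak within 10 kb, against 1.80% and 4.38% of those under 50%. Of the members, 10 had a GC content of 60% and over, of which 3 had an OLG peak and 1 an OPC peak. Another 9 members were under 50%, of which 0 had an OLG peak and 1, Gpr37, an OPC peak. Of the 17 members in between, 2 had an OLG peak and 2 an OPC peak, beside 6.36% and 13.8% of all such genes. Within 50 kb, from the lowest class to the highest, 1, 8 and 4 members had an OLG peak, beside 5.66%, 17.4% and 21.8% of all genes. For OPC the counts were 5, 12 and 2 members, beside 13.1%, 34.7% and 38.6%. The median number of other protein-coding starts within 50 kb was 1 for members and 2 for all genes, and the median gene length was 20454 bp for members and 16650 bp for all genes. Their part in the counts was not tested.

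Most tandem TCAT tracts were without a peak, near members as near all protein-coding genes. A tract of at least 12 bases lay within 10 kb of 7 members, 19.4% beside 12.9% of all genes, and within 50 kb of 17 members, 47.2% beside 45.8%. Of the 30 tracts within 50 kb of members, 0 had an OLG peak centre within 100 bp (exact interval up to 11.6%) and 1, in Mag, had an OPC peak centre there, 3.33% (0.0844 to 17.2). Around all genes the shares were 1.32% in OLG and 6.23% in OPC, inside these intervals. Read from the peaks, 0 of 16 OLG peaks near members held such a tract (up to 20.6%), where 5.71% of all OLG peaks did. Among OPC peaks near members 1 of 22 did, 4.55% (0.115 to 22.8), where 12.2% of all OPC peaks did.

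The 3 longest tracts near members had no peak in either list. They are shown, with 10 bases to each side and the tract in capitals, as sites with more of the repeat than the 25 bases under the OPC peak of Mag. That of Mag lies in an intron of Cd22, 41869 bp from a start. That of Trf is intergenic at 6918 bp, and that of Cryab is in an intron of Dixdc1 at 19245 bp.
Mag, 37 bases, chr7:30872393-30872449, minus strand: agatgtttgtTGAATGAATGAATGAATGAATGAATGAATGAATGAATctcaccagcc
Trf, 33 bases, chr9:103237352-103237404, minus strand: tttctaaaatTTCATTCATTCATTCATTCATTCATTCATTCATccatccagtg
Cryab, 35 bases, chr9:50732036-50732090, plus strand: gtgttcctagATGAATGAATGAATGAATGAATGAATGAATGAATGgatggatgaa
The nearest OLG peak centre was 35545 bp from the Trf tract and 33159 bp from the Cryab tract. The nearest OPC peak centre was 35782 bp from the Mag tract, 35389 bp from the Trf tract and 43069 bp from the Cryab tract. Over all protein-coding genes, 4.18% of the 622 tracts of 32 bases or more within 50 kb of a start were at an OLG peak and 25.9% at an OPC peak. Mbp had a tract of 14 bases 701 bp from a start, and the nearest peak centres to it were 1568968 bp away in OLG and 182877 bp away in OPC.

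**Figure D3:**
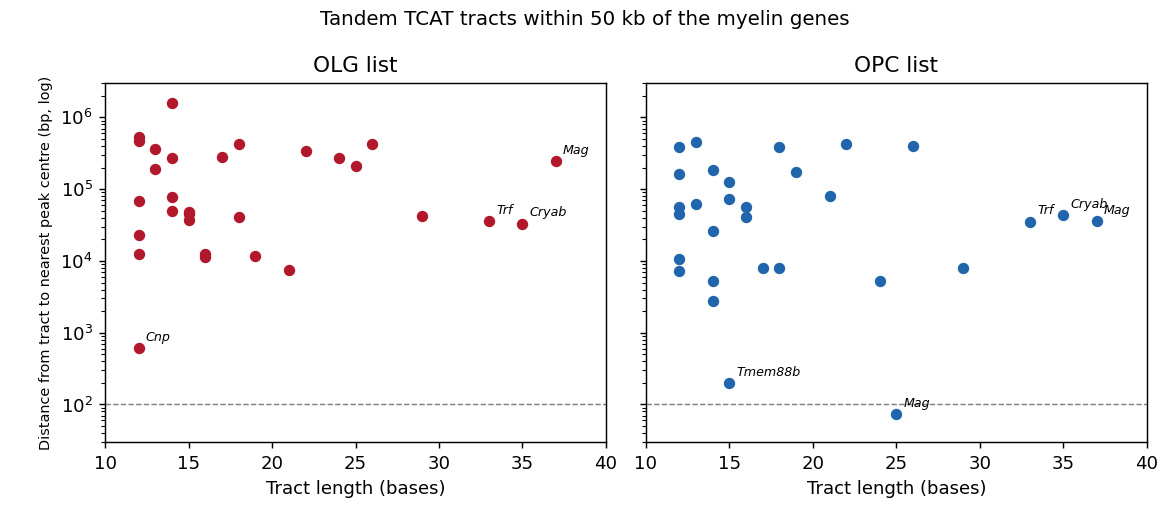
Length in bases of the 30 TCAT tracts within 50 kb of the myelin genes against the distance in bp (log scale) from the tract to the nearest OLG peak centre (left) and OPC peak centre (right), with a dashed line at 100 bp. The 25-base tract of Mag is below the line in OPC, no tract is below it in OLG, and the 3 longest tracts lie at least 33159 bp from any peak.

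Promoters with tandem runs of the unit were few among members, as among all promoters. RefSeq promoter sequences of GRCm38.p6, 250 bases before to 50 after the start, were matched for 29 of the 36 members, with 43 promoters in all. Tandem TCAT of at least 12 bases, in any phase and on both strands, was in 0 of the 43, and in 31 of all 32851 promoters (0.0944%). At so low a share, 43 promoters cannot show whether members differ. A run of at least 8 bases, as in CATTCATT, was in 3 of the 43, those of Ermn, Gal3st1 and Gpr37. It was in 1058 of all 32851 promoters (3.22%). The share of members is the higher, on a count of 3, and was not tested. No peak of either list covered these 3 runs. The one in the Gpr37 promoter lay 167 bases before a start, outside its OPC peak.

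Of 60 other genes of mature or differentiating oligodendrocytes, 8 had an OLG peak within 10 kb, 13.3% beside 6.50% of all genes, and 9 an OPC peak, 15.0% beside 12.8%. The OLG peaks included those at Itpr2, an inositol trisphosphate receptor, at 105 bp, Elovl7, a fatty acid elongase, at 254 bp, and the Src family kinase gene Fyn at 494 bp. Further OLG peaks were at the netrin receptor gene Unc5b at 504 bp, the homeobox gene Nkx6-2 at 982 bp, and Elovl1 at 7514 bp, the last in the 5' UTR of Cdc20. The OPC peaks included those at Dock5, a guanine nucleotide exchange factor, at 72 bp, Tmeff2 at 127 bp, Hspa2, a heat shock protein gene, at 239 bp and Pip4k2a, a phosphoinositide kinase, at 1185 bp. Further OPC peaks were at Mpzl1 at 4399 bp, Mcam at 8169 bp and Rffl at 8245 bp, the last on a TCAT tract of 27 bases.

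Phldb1 and S1pr5 had a peak of each list within 10 kb. In Phldb1 the OLG peak was 8535 bp and the OPC peak 7837 bp from a start, in an intron, with centres 698 bp apart and a TCAT tract of 26 bases in the OPC peak. S1pr5, a sphingosine phosphate receptor gene of mature oligodendrocytes, had its OLG peak in its own coding exon at 3619 bp, and the OPC peak at 9940 bp lay in the 5' UTR of Keap1.

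For markers of other cells, the shares within 10 kb are read beside the same 6.50% of all genes in OLG and 12.8% in OPC. Of 20 progenitor markers 1 had an OLG peak (5%) and 6 an OPC peak (30%), the 6 including Olig1, Olig2 and Sox10, transcription factors of the lineage. Of 15 astrocyte markers 1 had an OLG peak (6.67%) and 2 an OPC peak (13.3%). Of 15 microglial markers 2 had an OLG peak (13.3%) and 1 an OPC peak (6.67%). Of 15 neuronal markers 3 had an OLG peak (20%) and 1 an OPC peak (6.67%).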

How the data were processed

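ZFP24 ChIP-seq with an antibody against ZNF24 was read as single-end sequence, per the labels' protocols. The deposited peak lists hold the chromosome, start, end and name of each peak in mm10 (GRCm38). BWA and HOMER 4.8.3 were used, per the submitters' processing notes. The sources used here give neither the calling threshold nor how the null and input libraries entered. Depth is unknown.

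Starts were those of all GENCODE M21 basic transcripts of protein-coding genes, and distances run from peak centres, with 1-based GRCm38 positions. A TCAT tract is at least 12 bases of the tandem unit on either strand, at a peak if within 100 bp of its centre, and in a peak if within the 200 bp around the centre. Intervals are exact at 95%. Python 3.11.15, numpy 2.4.6, scipy 1.17.1, pandas 2.3.3 and pysam 0.24.0 were used. Tested on simulated data, 200 of 200 planted tracts and 200 of 200 planted distances were recovered.

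The members and lists were chosen with earlier results of these data known. All members were named, and of the other oligodendrocyte list those with a peak within 10 kb. Alternatives changed the window, the starts, the distance, the peaks kept, the overlap and the tract length. The site of 1 distant peak is not reported here.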

Additional observations from a re-analysis of the deposited data

How the results depend on the processing

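Of 42 alternatives, 32 left a count within 1.5 times its value and 10 moved it. At 10 kb, OLG had 3 members with a window of 5 kb and 2 with the peaks whose name number was in the lower 50% of its chromosome, in place of 5, and OPC had 9 with distance to the gene body, in place of 4. At 50 kb, in place of 13 in OLG and 19 in OPC, the counts were 8 and 11 with a window of 25 kb, 6 and 9 with the lower 50% of name numbers, and 7 and 11 with each peak given only to the nearest start. The smaller windows and fewer peaks lower a count by construction, and distance to the gene body can raise but not lower it. No share of all genes is given here for the gene-body, 25 kb and name-number counts. They are therefore not read as an excess or a lack in members. The OLG peaks near members that overlapped an OPC peak were 1 in place of 2 where at least 50% of the OLG peak had to be covered. With RefSeq starts, OPC had 5 members at 10 kb, Nfasc being added. What the name numbers stand for is not given, so this is at best a coarse stand-in for a stricter threshold. Depth is unknown, so a missing peak may be a site below detection. No paired analysis was possible because each group had 1 library.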
